A study of Mus musculus with 2 samples.

Results

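The genes described here are 40 genes of the G2 phase and of mitosis, measured cell by cell in the face of the mouse embryo at the time the upper lip forms. They were taken by symbol from a list of names, and the list was drawn up with earlier results of these data known. All 40 are among the 27998 genes that both libraries share, all 40 passed the filter on low counts, and each has 1 gene ID. For each cell the UMIs (unique molecular identifiers, 1 for each captured transcript) of the 40 genes were added up and scaled to 10000 UMIs of that cell, which is called the summed level below. The question put to the data was whether these genes stand at the same level in the ectodermal and the mesenchymal cells of this tissue.

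The tissue was the lambdoid junction, where the nasal and maxillary prominences meet, with its nasolacrimal groove and nasal fin, from embryos of day E11.5. There were 2 libraries of the 10x Genomics 3' version 2 kit, 1 per genotype. The Crect lacZ library came from embryos with the genotype Crect; ROSA26-lacZ, in which Crect is a transgene for Cre recombinase in the ectoderm and lacZ is a reporter at the ROSA26 locus. The other library came from wild-type embryos, and the strain label of both is C57BL/6J. Each library pooled the tissue of 4 to 5 embryos, and with 1 library for each genotype, values by genotype are given without a test.

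Progress through G2 into mitosis is driven by the kinase Cdk1 with its B-type cyclins. Mitosis then runs in order through condensation of the chromosomes, attachment of their kinetochores to the spindle, a checkpoint that waits for every attachment, destruction of the cyclins by the anaphase-promoting complex, and cytokinesis. The genes for these proteins are transcribed late in the cycle, largely through the MuvB complex with B-Myb or FoxM1, and their transcripts are used to mark cells in G2 and mitosis. In the face at this age both the surface ectoderm and the mesenchyme beneath it, most of it from the neural crest, are growing tissues.

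Cells were kept with at most 10% of their UMIs in mitochondrial genes, which left 6687 of 6894 Crect lacZ barcodes and 7909 of 7966 wild-type barcodes. Ectodermal cells had 2 or more UMIs of Epcam, an epithelial adhesion gene, and numbered 762 in the Crect lacZ library and 944 in the wild-type library. Mesenchymal cells had 3 or more UMIs of Prrx1, Prrx2 and Twist1 together and at most 1 of Epcam, and numbered 5488 and 6259 in these libraries. The remaining 437 and 706 cells were in neither territory. The names held up against other markers: all 12 ectoderm markers were higher in the ectodermal cells in both libraries, and all 10 mesenchyme markers were lower there. The ectoderm markers summed to 1638 CPM (UMIs scaled to the total of the summed cells) in Crect lacZ and 1681 CPM in wild-type ectodermal cells, against 47.7 and 38.6 CPM in the mesenchymal cells of the same libraries. The mesenchyme markers were far from 0 in the ectodermal cells, at 779.95 CPM in Crect lacZ and 688 CPM in wild-type cells, against 2172 and 2597 CPM in the mesenchymal cells. Of the ectodermal cells, 275 in the Crect lacZ library (36.1%) and 176 in the wild-type library (18.6%) also had 3 or more UMIs of Prrx1, Prrx2 and Twist1. The summed level, the counts of calls, the balance of late and early genes and 2 ectodermal gates are given with and without them below, and the other ectodermal values only with them. The libraries shared 76 cell barcodes.

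The promoters of the set carry a common sequence pattern, which is shown before the values because late cell cycle genes are known for it. Promoter sequences from RefSeq (build GRCm38.p6, 250 bases before to 50 after the start) were matched by symbol for 36 of the 40 genes. They were not matched for Smc4, Aurkb, Dlgap5 and Tpx2. A CHR element, the cell cycle genes homology region through which MuvB binds, was searched as TTTGAA or TTCGAA on both strands. A CCAAT box, the site of NF-Y, was searched as CCAAT on both strands. A CHR element was found in 28 of the 36 promoters (77.8%), beside 13.3% of 11177 promoters of genes tested below and 19.4% of all 27025 genes in the table. In 25 of the 36 (69.4%) it lay within 50 bases of the start, beside 3.51% of the tested genes. A CCAAT box was found in 29 (80.6%), beside 38.6% of the tested genes, and 2 or more boxes in 21 (58.3%), beside 14.5%. Both motifs together were in 24 promoters (66.7%), beside 5.73%. The sequences below run from 120 bases before the start to 30 after it, with the letters of both motifs in capitals (on the other strand a CHR element reads TTCAAA or TTCGAA and a CCAAT box ATTGG), for the called gene with the largest change in each role group whose window held a CHR element. The chromosomal passenger complex had no such called gene, since Birc5 had no CHR element and Aurkb was not matched. Its member Cdca8 had a CHR element beginning at base 14. Cdca8 was not called and is therefore not among the sequences. They lie at chr9:70421525-70421674 (Ccnb2, a B-type cyclin), chr4:118437314-118437463 (Cdc20), chr1:88277550-88277699 (Hjurp), chr11:40733408-40733557 (Hmmr), chr9:22389177-22389326 (Anln) and chr11:99024160-99024309 (Top2a) on the minus strand, and at chr9:83834569-83834718 (Ttk) on the plus strand.
Ccnb2: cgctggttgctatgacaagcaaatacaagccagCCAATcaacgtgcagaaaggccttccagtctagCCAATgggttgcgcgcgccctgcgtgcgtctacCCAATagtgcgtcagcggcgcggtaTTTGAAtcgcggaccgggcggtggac
Cdc20: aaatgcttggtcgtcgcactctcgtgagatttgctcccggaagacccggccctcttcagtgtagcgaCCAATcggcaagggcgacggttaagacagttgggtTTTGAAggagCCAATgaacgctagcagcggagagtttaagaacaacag
Ttk: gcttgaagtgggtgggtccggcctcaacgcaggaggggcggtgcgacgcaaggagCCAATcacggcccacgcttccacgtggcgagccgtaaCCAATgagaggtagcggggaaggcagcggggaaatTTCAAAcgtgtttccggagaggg
Hjurp: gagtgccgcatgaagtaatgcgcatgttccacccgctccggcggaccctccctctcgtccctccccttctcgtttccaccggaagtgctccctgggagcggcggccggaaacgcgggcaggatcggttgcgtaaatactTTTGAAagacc
Hmmr: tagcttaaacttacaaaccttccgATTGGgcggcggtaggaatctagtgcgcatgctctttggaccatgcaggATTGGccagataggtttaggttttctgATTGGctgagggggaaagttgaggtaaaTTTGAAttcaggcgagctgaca
Anln: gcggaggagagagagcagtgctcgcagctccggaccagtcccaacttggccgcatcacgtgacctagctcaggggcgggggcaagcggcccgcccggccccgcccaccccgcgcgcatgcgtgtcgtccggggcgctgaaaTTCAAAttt
Top2a: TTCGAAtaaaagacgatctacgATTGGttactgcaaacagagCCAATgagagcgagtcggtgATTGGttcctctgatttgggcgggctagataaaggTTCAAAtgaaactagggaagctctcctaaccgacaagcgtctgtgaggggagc
In Ccnb2 the CHR element began at base 5 after the start and the 3 CCAAT boxes 21, 54 and 87 bases before it. Top2a had 3 boxes and 2 elements, of which 1 began 23 bases before the start. The Hjurp and Anln windows held a CHR element, beginning at bases 20 and 22, and no CCAAT box. No element overlapped a box in these windows. A match is a description of the letters, and binding was not measured.

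The summed level was lower in ectodermal than in mesenchymal cells in both libraries. Its mean was 36.9 per 10000 UMIs in Crect lacZ ectodermal cells (95% Poisson interval of the count 36.6 to 37.2), against 42.5 (42.4 to 42.6) in the mesenchymal cells of that library. In the wild-type library it was 42.7 (42.4 to 43.0) in ectodermal cells, against 55.4 (55.2 to 55.5) in mesenchymal cells. These intervals cover counting error only, and the SD between cells was 36.2 in ectodermal and 35.96 in mesenchymal Crect lacZ cells and 40.4 in ectodermal and 45.5 in mesenchymal wild-type cells. Wild-type ectodermal and Crect lacZ mesenchymal cells were at the same level within counting error, so the territories differed within a library while the libraries overlapped. With only 2 libraries no test of the summed level was made. In the ectodermal cells with 3 or more mesenchymal UMIs the mean was 44.2 in Crect lacZ and 51.2 in wild-type cells, against 32.8 and 40.8 in the other ectodermal cells. Without them the distance to the mesenchymal cells was larger in both libraries. They were also deeper, with medians of 23476 UMIs in Crect lacZ and 24545 in wild-type cells, against 16662 and 15243 in the other ectodermal cells. Depth moved with the summed level, as given below, and its part in this larger distance was not tested.

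A raised level was less frequent among ectodermal cells. A level of 20 or more was reached by 53.7% of Crect lacZ ectodermal cells (exact 95% interval 50.1 to 57.3) against 64.0% of the mesenchymal cells (62.7 to 65.3). In the wild-type library it was reached by 57.2% of ectodermal cells (54.0 to 60.4), against 71.6% of mesenchymal cells (70.4 to 72.7). The level is continuous and 20 marks no class: between 8.9% and 13.3% of the cells of each set lay between 15 and 25. The direction was the same at higher levels, with 33.3% of ectodermal against 41.0% of mesenchymal cells at 40 or more in Crect lacZ cells, and 41.1% against 51.7% in wild-type cells. At 80 or more it was 14.04% of ectodermal against 17.0% of mesenchymal Crect lacZ cells, and 19.6% against 26.5% of wild-type cells. Among cells at 20 or more, the mean level was 60.8 in ectodermal and 60.5 in mesenchymal Crect lacZ cells, and 68.0 in ectodermal and 73.0 in mesenchymal wild-type cells. No class of cells here is free of these transcripts: 54.2% of Crect lacZ and 62.3% of wild-type cells in the erythroid gate, with medians of 13653 and 30521 UMIs, had a Top2a UMI after thinning each cell to 5000 UMIs. In the early neuron gate the share was 31.8% of 22 Crect lacZ cells and 47.6% of 21 wild-type cells, with medians of 15342 and 11555 UMIs. With all their UMIs, the 15 wild-type cells of this gate in neither territory had a mean summed level of 56.9, above both wild-type territories. The 4 Crect lacZ cells had 25.7. After thinning the means were 30.5 in the 22 Crect lacZ and 26.1 in the 21 wild-type cells, below both territories of their library. In each of these sets the transcripts were present, so the gate is no set of cells without them. The territories were gated again on the thinned counts, which left 389 ectodermal and 4510 mesenchymal Crect lacZ cells, and 531 and 4761 wild-type cells. Of these, 55.3% of ectodermal and 64.8% of mesenchymal Crect lacZ cells, and 58.9% and 70.4% of wild-type cells, had a Top2a UMI. Over all cells of the territories, with all their UMIs, the shares were 78.9% of ectodermal and 82.4% of mesenchymal Crect lacZ cells, and 75.4% and 83.3% of wild-type cells.

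**Figure D1:**
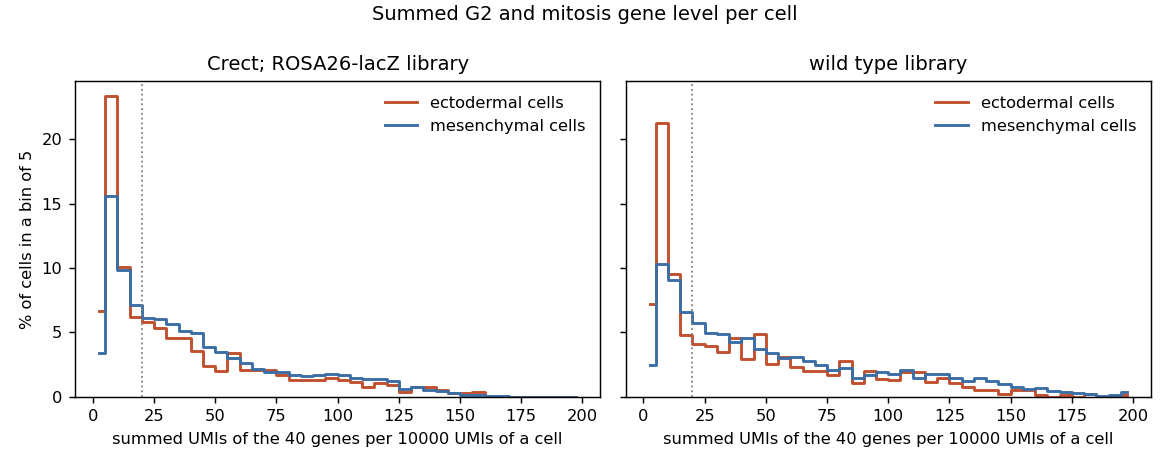
Share of cells (y axis, % in bins of 5) by summed level of the 40 genes (x axis, UMIs per 10000 UMIs of the cell) in ectodermal and mesenchymal cells of each library, with a dotted line at 20 and the last bin holding all higher cells. In both libraries the ectodermal curve is above the mesenchymal one at the lowest levels and mostly below it from 15 upward.

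Depth moved with the summed level. Cells at 40 or more had medians of 23146 UMIs in Crect lacZ ectodermal and 20707 in mesenchymal cells, and 20270 and 15664 in the wild-type library. Cells under 20 had medians of 16632 UMIs in ectodermal and 15149 in mesenchymal Crect lacZ cells, and of 13211 and 11196 UMIs in the wild-type library. Ectodermal cells were the deeper territory, with medians of 18735 against 17723 UMIs in Crect lacZ and 16180 against 13759 UMIs in wild-type cells. Compared within 10 equal groups of cells by depth, the ectodermal mean was lower in 9 of 10 groups in the Crect lacZ library and in 10 of 10 in the wild-type library. The exception was the shallowest Crect lacZ group, with 36.5 in ectodermal against 35.8 in mesenchymal cells. Weighted to the depths of the ectodermal cells, the mesenchymal mean was 45.2 in Crect lacZ and 62.8 in wild-type cells, so the distance was larger with this weighting. In cells thinned to 5000 UMIs and gated again it was somewhat smaller than with all UMIs. The thinned means were 39.8 in ectodermal against 44.0 in mesenchymal Crect lacZ cells, and 45.6 against 57.6 in wild-type cells. Blood and vessel markers were lower in ectodermal cells as well: 8 erythroid markers summed to 4378 CPM in Crect lacZ and 5653 CPM in wild-type ectodermal cells, against 5282 and 17580 CPM in mesenchymal cells, and 6 endothelial markers to 49.1 and 21.8 CPM, against 83.4 and 66.1 CPM. The 6 macrophage markers summed to 12.9 and 6.84 CPM in ectodermal cells, against 22.2 and 27.7 CPM in mesenchymal cells. Crest glia markers were at 11.7 and 9.26 CPM, against 10.5 and 6.37 CPM, and early neuron markers at 119.7 and 49.8 CPM, against 82.1 and 96.9 CPM. None of these markers was at 0 in either territory, and the part of such cells or their free RNA in the results was not tested.

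**Figure D2:**
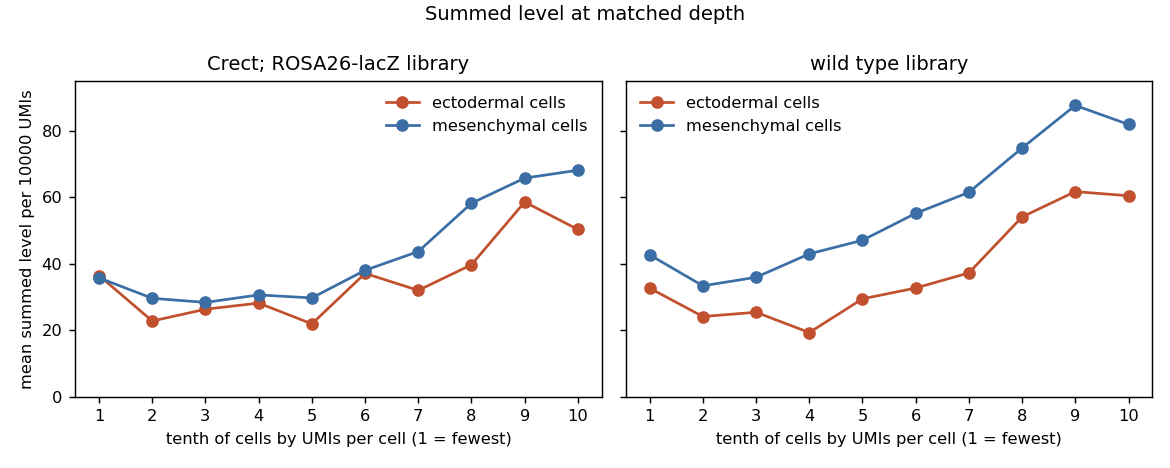
Mean summed level (y axis, UMIs per 10000) of ectodermal and mesenchymal cells in 10 equal groups of cells ordered by UMIs per cell (x axis), for each library. The ectodermal points lie under the mesenchymal ones in all groups but the shallowest of the Crect lacZ library.

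Gene by gene, 27 of the 40 genes were lower in ectodermal cells and none was higher, with edgeR's quasi-likelihood test on the 4 sums of library and territory, library as a block, and an adjusted p under 0.05. No gene was higher at an unadjusted p under 0.05 either, 30 were lower at that p, and DESeq2 called 17 lower and none higher (0 also at its unadjusted p). Of all 15419 genes tested, the 4 gate genes left out, 21.1% were called lower and 21.8% higher. The median log2 change, ectodermal over mesenchymal, was -0.27 over the 40 genes and -0.03 over all genes tested. The sizes were modest: 1 of the 40, Top2a, was lower by a fold of 1.5 or more, beside 11.1% of all genes tested. In 35 of the 40 the ectodermal sum was below the mesenchymal sum in both libraries, beside 43.9% of all genes. In 19 both ectodermal sums were below both mesenchymal sums, beside 29.4%. Without the library as a block edgeR called 0 of the 40 at an adjusted p under 0.05, 4 of them lower at an unadjusted p under 0.05, and 4.9% of all genes lower. In such sums fewer cells in G2 or mitosis and less RNA of these genes per cell cannot be told apart.

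Of the 27 genes, 14 were called under all 11 other settings that kept the block: Aurka, Birc5, Bub1, Cenpa, Cenpe, Ckap2l, Hjurp, Hmmr, Kif2c, Mki67, Smc4, Top2a, Tpx2 and Ttk. The other 13 lost the call with DESeq2, with an Epcam gate of 4 UMIs or in cells thinned to 5000 UMIs and gated again, where both the depth and the cells of each territory differ. They were Ccnb2 and Cdca3 (thinning alone), Aurkb, Cks2, Kif11 and Plk1 (2 of these settings), and Anln, Aspm, Bub1b, Cdc20, Cdk1, Ckap2 and Dlgap5 (all 3). Cdc20 turned to a log2 change of 0.06 in thinned cells. Without the ectodermal cells that had 3 or more mesenchymal UMIs, also the deeper ones, all 27 calls were kept and the count was 33. A fold of 1.5 or more was then reached by 4 genes, and by 0 where cells were limited to 5% mitochondrial UMIs. The shares of all genes called under these settings are not given here.

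**Figure D3:**
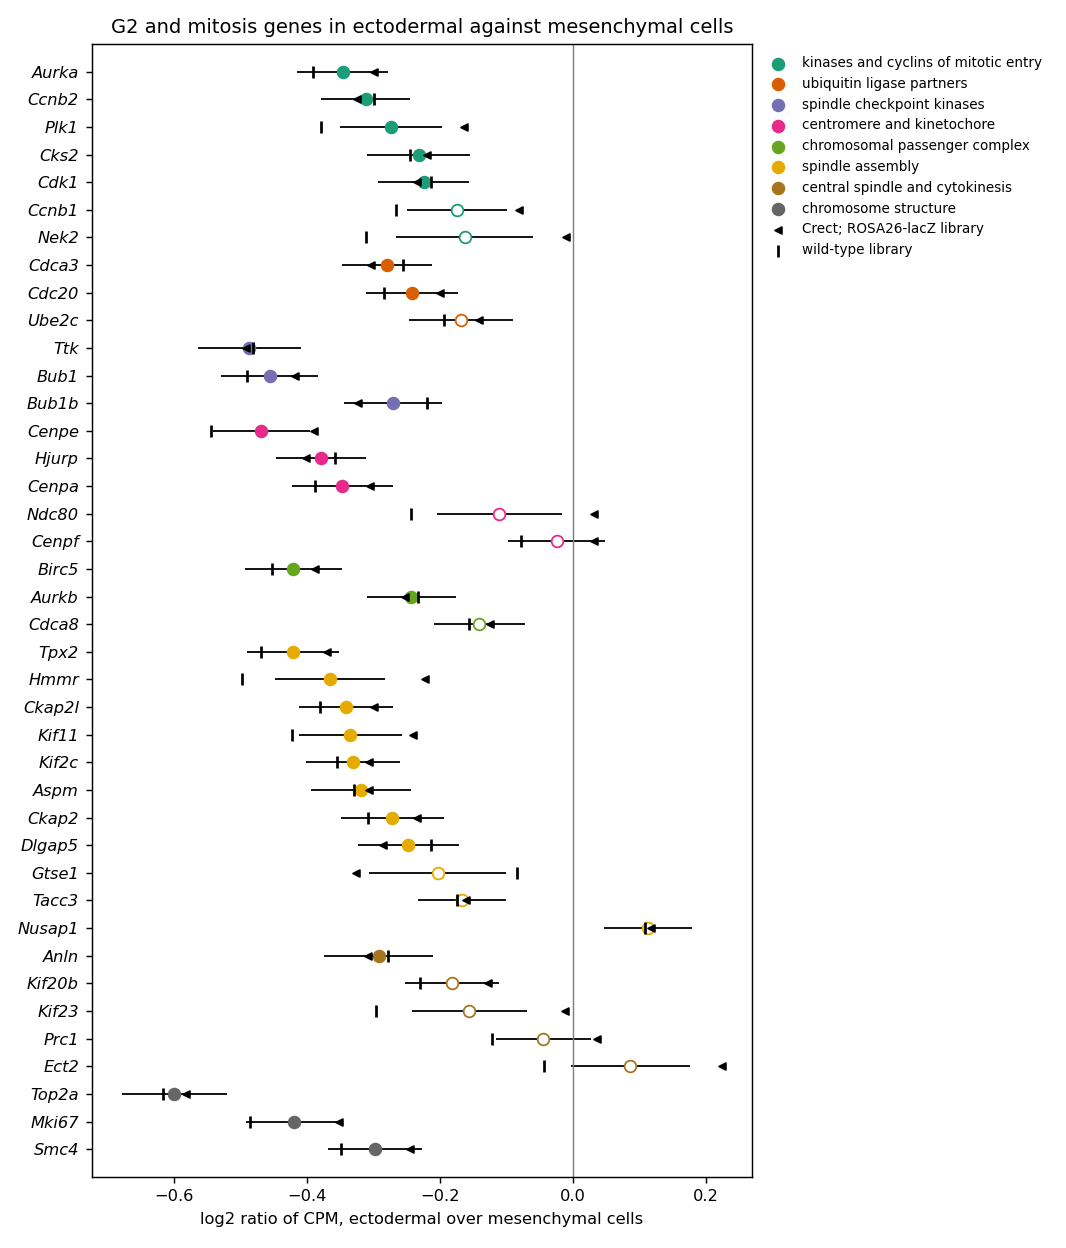
Log2 ratio of CPM in ectodermal over mesenchymal cells (x axis) for the 40 genes (y axis) by role, with circles for the edgeR estimate, bars for its standard error, filled circles for genes called lower, and small marks for each library's own ratio. Top2a is farthest left at -0.60 and Nusap1 farthest right at 0.11.

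The 3 genes of chromosome structure were all called lower and included the largest change of the 40. Top2a (chr11:98992943-99024189, minus strand; gene positions are on GRCm38), the topoisomerase that untangles sister DNA, had 323 CPM in Crect lacZ and 427 CPM in wild-type ectodermal cells, against 483 and 655 CPM in the mesenchymal cells of these libraries. Both ectodermal sums lay under both mesenchymal ones, and the log2 change was -0.60 ± 0.08 (SE; edgeR, adjusted p = 0.00037), or 1.52-fold lower. Mki67, which coats mitotic chromosomes and is the source of the Ki-67 marker, had 98.9 CPM in Crect lacZ and 148 CPM in wild-type ectodermal cells, against 126 and 208 CPM in the mesenchymal cells of these libraries. Its ectodermal sum was lower within each library, while wild-type ectodermal cells exceeded Crect lacZ mesenchymal cells. Smc4, a condensin subunit, had a log2 change of -0.30 ± 0.07 (SE; edgeR, adjusted p = 0.0095).

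Of the 3 spindle checkpoint kinases, all 3 were called lower. Ttk (chr9:83834689-83872389, plus strand), which starts the checkpoint at unattached kinetochores, had 27.0 CPM in Crect lacZ and 27.1 CPM in wild-type ectodermal cells, against 37.9 and 37.8 CPM in mesenchymal cells. The 2 libraries gave nearly the same values within each territory, and the log2 change was -0.49 ± 0.08 (SE; edgeR, adjusted p = 0.0011). Bub1 (chr2:127801122-127831865, minus strand), a kinase that recruits other checkpoint proteins, had 30.7 CPM in Crect lacZ and 48.0 CPM in wild-type ectodermal cells, against 41.1 and 67.5 CPM in the mesenchymal cells of these libraries. The territories overlapped across libraries but not within one, with a log2 change of -0.46 ± 0.07 (SE; edgeR, adjusted p = 0.0011). Bub1b, which restrains the anaphase-promoting complex, changed by -0.27.

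At the centromere and kinetochore 3 of 5 genes were called lower. Cenpa (chr5:30666777-30674830, plus strand), the histone H3 variant that marks centromeres, had 282 CPM in Crect lacZ and 280.0 CPM in wild-type ectodermal cells, against 348 and 367 CPM in mesenchymal cells. Its log2 change was -0.35 ± 0.08 (SE; edgeR, adjusted p = 0.0059). Its loading chaperone Hjurp changed by -0.38, and Cenpe (chr3:135212537-135273611, plus strand), the kinetochore motor that brings chromosomes to the spindle equator, by -0.47 ± 0.07 (SE; edgeR, adjusted p = 0.00092). Cenpe had 86.3 CPM in Crect lacZ and 131 CPM in wild-type ectodermal cells, against 113 and 191 CPM in the mesenchymal cells of these libraries. The other two members were not called: Cenpf, a large kinetochore protein, had a log2 change of -0.02 and Ndc80, which holds microtubules at the kinetochore, of -0.11. Both were slightly higher in ectodermal cells of the Crect lacZ library, at 0.03 each, and lower in those of the wild-type library.

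Of the chromosomal passenger complex, which corrects faulty attachments, 2 of 3 genes were called lower. Birc5 (chr11:117849251-117855743, plus strand), or survivin, had 242 CPM in Crect lacZ and 241 CPM in wild-type ectodermal cells, against 317 and 329 CPM in mesenchymal cells. The sums did not overlap, and the log2 change was -0.42 ± 0.07 (SE; edgeR, adjusted p = 0.0019). Aurkb, the kinase of the complex, changed by -0.24, and Cdca8, or borealin, had -0.14 and was not called.

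Among the 7 kinases and cyclins of mitotic entry 5 were called lower, and all 7 had lower ectodermal sums in both libraries. Aurka (chr2:172356190-172370535, minus strand), the kinase of maturing centrosomes, had 63.2 CPM in Crect lacZ and 75.7 CPM in wild-type ectodermal cells, against 77.8 and 99.4 CPM in mesenchymal cells. Its log2 change of -0.35 ± 0.07 (SE; edgeR, adjusted p = 0.0037) was the largest of the group. Cks2 (chr13:51645232-51650660, plus strand), a small partner of Cdk1, had the most UMIs of the group, with 403 CPM in Crect lacZ and 375 CPM in wild-type ectodermal cells, against 469 and 444 CPM in the mesenchymal cells of these libraries. Its change was -0.23 ± 0.08 (SE; edgeR, adjusted p = 0.039). Cdk1 changed by -0.22, Ccnb2 by -0.31 and Plk1, a kinase of many mitotic steps, by -0.27. The cyclin gene Ccnb1 had -0.17 and Nek2, a centrosome kinase, -0.16, and neither was called.

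Of 3 partners of ubiquitin ligases, among them Cdc20 and Ube2c of the anaphase-promoting complex, 2 were called lower. Cdca3 (chr6:124829547-124833701, plus strand), named as a trigger of mitotic entry, had 126 CPM in Crect lacZ and 116 CPM in wild-type ectodermal cells, against 155 and 139 CPM in mesenchymal cells. Its log2 change was -0.28 ± 0.07 (SE; edgeR, adjusted p = 0.0098), and that of Cdc20, the activator of the complex in mitosis, was -0.24. Ube2c (chr2:164769898-164778822, plus strand), the ubiquitin-conjugating enzyme of the complex, had 449.5 CPM in Crect lacZ and 358 CPM in wild-type ectodermal cells, against 496 and 410.2 CPM in the mesenchymal cells of these libraries. The wild-type mesenchymal sum lay under the Crect lacZ ectodermal one, and the change of -0.17 was not called and turned to 0.014 in thinned cells.

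Spindle assembly genes were the largest group, with 8 of 11 called lower. Tpx2 (chr2:152847964-152895321, plus strand), which activates Aurora A on the spindle, had 95.6 CPM in Crect lacZ and 124 CPM in wild-type ectodermal cells, against 124 and 172 CPM in mesenchymal cells. Its log2 change was -0.42 ± 0.07 (SE; edgeR, adjusted p = 0.0013). Hmmr, a spindle microtubule protein, changed by -0.37, Ckap2l by -0.34, the bipolar spindle motor Kif11 by -0.34 and the microtubule depolymerase Kif2c by -0.33. The spindle pole protein Aspm changed by -0.32, Ckap2 by -0.27 and Dlgap5, which stabilizes kinetochore fibres, by -0.25. Gtse1 and Tacc3 had -0.20 and -0.17 and were not called. Nusap1 (chr2:119618298-119651244, plus strand), which bundles spindle microtubules, stood at the other end of the 40 genes. It had 112 CPM in Crect lacZ and 133 CPM in wild-type ectodermal cells, against 104 and 124 CPM in mesenchymal cells. Its log2 change of 0.11 ± 0.07 (SE; edgeR, adjusted p = 0.21) was not called, but Nusap1 was called higher with an Epcam gate of 4 UMIs and in thinned cells.

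Central spindle and cytokinesis genes were the group with the fewest calls, 1 of 5. Anln (chr9:22332012-22389188, minus strand), the scaffold of the contractile ring, had 19.5 CPM in Crect lacZ and 25.6 CPM in wild-type ectodermal cells, against 24.1 and 31.1 CPM in mesenchymal cells. Its log2 change was -0.29 ± 0.08 (SE; edgeR, adjusted p = 0.019). Prc1 (chr7:80294450-80316259, plus strand), which crosslinks the microtubules of the central spindle, had 68.4 CPM in Crect lacZ and 109.5 CPM in wild-type ectodermal cells, against 66.7 and 119 CPM in the mesenchymal cells of these libraries. The libraries differed far more than the territories, and the change of -0.04 was not called and turned to 0.065 in thinned cells and 0.075 with an Epcam gate of 4 UMIs. Kif20b had -0.18, the centralspindlin motor Kif23 -0.16 and Ect2, the exchange factor for RhoA, 0.09, none of them called. That this group changed less than the others was not tested. Exons of Nek2, Ube2c, Cdc20, Nusap1, Tacc3, Ckap2l and Prc1 overlap exons of a gene on the other strand in GENCODE vM21. The strand setting of the counting was not given in the sources used here, so counts of these 7 genes are less certain.

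Other genes of the cell cycle were read from lists of the same fit, in which 21.1% of all genes tested were called lower and 21.8% higher. Of 46 further G2 and mitosis genes, 27 were called lower and 1 higher, with a median log2 change of -0.26. Among them Spag5, or astrin, had 20.5 CPM in Crect lacZ and 17.4 CPM in wild-type ectodermal cells, against 29.95 and 28.7 CPM in mesenchymal cells, a change of -0.63. Psrc1, a spindle protein, changed by -0.49. The 1 gene called higher, named after its values were seen, was Gas2l3, a protein that links actin and microtubules, at 0.38. Of 17 genes of the anaphase-promoting complex and its inhibitors, 8 were called lower and 0 higher, with a median of -0.22. They included the inhibitor Fbxo5, or Emi1, at -0.51 and the core subunit Cdc27 at -0.51. Of 35 DNA replication genes, 27 were called lower and 1 higher, with a median of -0.30. The largest change there was that of Ccne1, cyclin E1, at -0.87, followed by Rrm2, the small subunit of ribonucleotide reductase, at -0.81, and Ung, the uracil DNA glycosylase, was higher by 0.45.

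Of 24 regulators of G2 and mitosis genes, 7 were called lower and 3 higher, beside the 21.1% and 21.8% of all genes tested, and 18 were fitted below 0, with a median of -0.20. The cell cycle transcription factor E2f1 had 24.7 CPM in Crect lacZ and 20.9 CPM in wild-type ectodermal cells, against 36.8 and 33.4 CPM in mesenchymal cells, a change of -0.63. E2f5, a repressive E2F, changed by -0.62, and Lin37, a MuvB subunit, was higher by 0.27. Named after their values were seen, the activators Mybl2, or B-Myb, and Foxm1 changed by -0.35 and -0.27, and E2f8 and Rb1, the retinoblastoma gene, were higher by 0.45 and 1.87. Of 7 G1 cyclins and kinases, 3 were called lower and 2 higher. Ccnd1, cyclin D1, changed by -0.40 and Cdk2 by -0.35, while Cdk6 was 2.01-fold higher. Ccnd2, cyclin D2, had 882 CPM in Crect lacZ and 1611 CPM in wild-type ectodermal cells, against 394 and 410.5 CPM in mesenchymal cells, 2.97-fold higher. Of 7 cyclin-dependent kinase inhibitors, 3 were called higher and 1, Cdkn2d, lower, at -0.33. Cdkn1a, or p21, had 55.8 CPM in Crect lacZ and 74.1 CPM in wild-type ectodermal cells, against 3.27 and 2.18 CPM in the mesenchymal cells of these libraries, a level 23.9-fold higher in ectodermal cells.

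Across cells the levels of all 40 genes went together. Pearson's r of their log levels was computed across the cells of each library and territory and averaged over these 4 sets, where pairs share the cells and their depth, so the values are a description. All 780 pairs were positive in all 4 sets, with a median r of 0.43. The highest was 0.77, between Ube2c and Nusap1, and the lowest 0.11, between Ccnb2 and Hjurp. Ube2c had the highest mean r with the others, 0.57, and Gtse1 the lowest, 0.22. Ccnb2 went with Cenpa (0.62) and Cdc20 (0.58), while Hjurp went with Top2a (0.52) and had 0.15 with Cenpa, the histone that its protein loads. Outside the set, the gene whose level followed the summed level most closely among 8604 genes was Hmgb2, a chromatin protein, at a mean r of 0.85. The next were H2afx, Ube2s, Spc25, Ccna2, Cks1b, Fam64a, Arl6ip1, Incenp and H2afz, between 0.64 and 0.77. Ccnd2 was among the 10 most opposite genes, at -0.35, and the other 9 were genes of ribosomal proteins and Eef1a1.

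**Figure D4:**
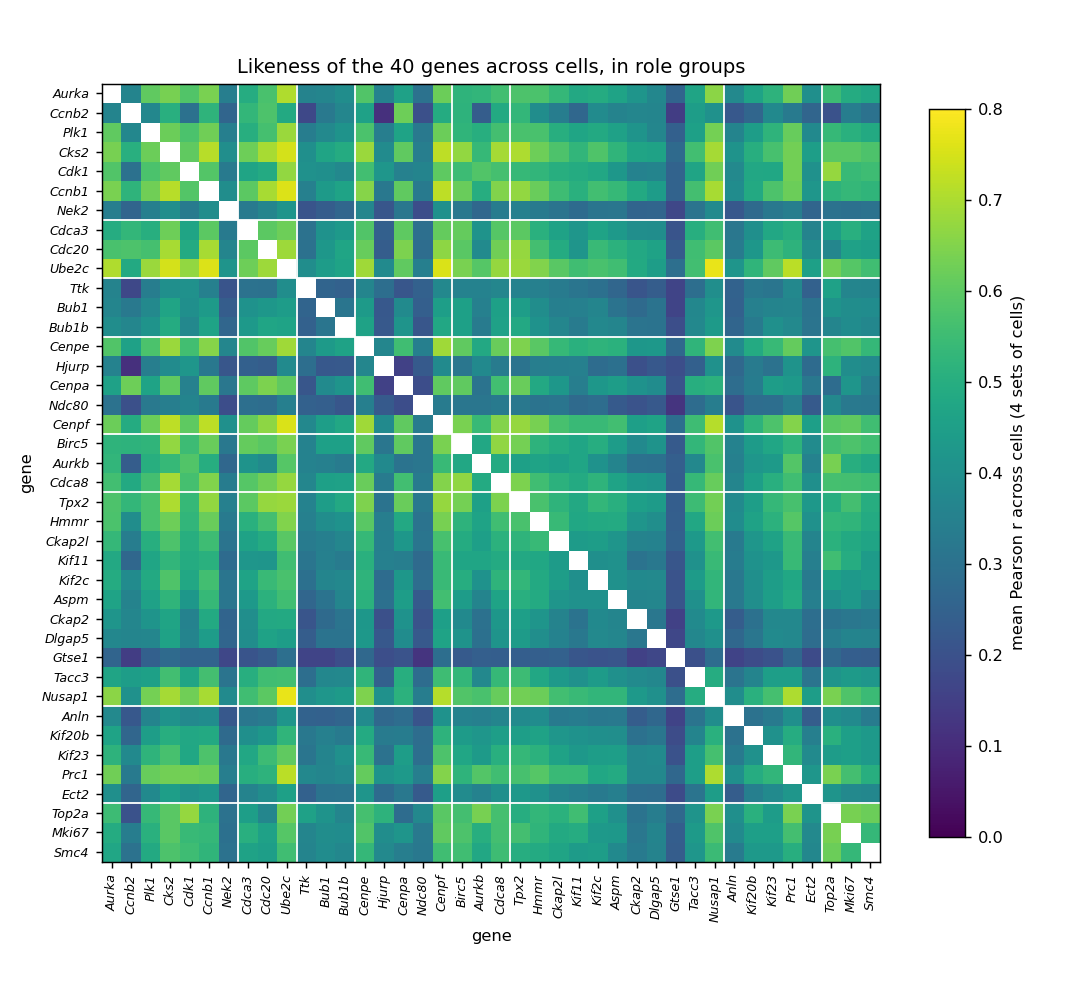
Pearson's r between log levels of each pair of the 40 genes across cells, averaged over the 4 sets of library and territory, with genes on both axes in role groups parted by white lines. Ube2c, Cks2 and Cenpf have the brightest bands, and the Ccnb2 and Hjurp crossing is the darkest pair at 0.11.

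In the high cells the balance of late and early genes was compared, without a test. In cells at 40 or more, the UMIs of Cdc20, Plk1, Ccnb1, Aurka, Cenpa and Cenpe, which peak late, were set against those of Top2a, Cdk1, Smc4 and Kif11, which rise earlier. Their ratio was 1.33 in Crect lacZ ectodermal cells (95% counting interval 1.29 to 1.37), against 1.13 in mesenchymal cells (1.12 to 1.15). In the wild-type library it was 1.11 in ectodermal cells (1.09 to 1.14), against 0.998 in mesenchymal cells (0.989 to 1.01). The late genes held more UMIs than the early ones in 71.3% of 254 Crect lacZ ectodermal cells against 53.1% of 2252 mesenchymal cells, and in 54.6% of 388 wild-type ectodermal cells against 44.5% of 3234 mesenchymal cells. Without the ectodermal cells that had 3 or more mesenchymal UMIs the ratio was 1.32 (1.26 to 1.38) in 141 Crect lacZ and 1.13 (1.09 to 1.16) in 293 wild-type ectodermal cells. The direction was the same in both libraries, but Top2a, the most changed of the 40 genes, is in the early set. Over all cells of the territories Cdk1, Smc4 and Kif11 changed by -0.22, -0.30 and -0.34. The late genes changed by -0.17 (Ccnb1) to -0.47 (Cenpe), which takes in the same range. No ratio was computed without Top2a, so how far the balance rests on this gene was not tested.

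Within the territories, cells were gated by genes outside the set. The gates share cells, and a gate on UMIs takes deeper cells, so the ratio to the other cells of the territory is also given after thinning to 5000 UMIs and gating again. The Shox2 gate, for a homeobox gene of mesenchyme, was above the other mesenchymal cells in both libraries and at both depths. It had a mean of 50.5 in 448 Crect lacZ cells, against 41.8 in the other mesenchymal cells (ratio 1.21, thinned 1.16), and of 66.3 in 713 wild-type cells, against 54.0 (ratio 1.23, thinned 1.17). The Emx2 gate, for a homeobox gene, had ratios of 1.18 in Crect lacZ and 1.202 in wild-type cells (thinned 1.18 and 1.06). In ectoderm the Dkk4 gate, for a secreted Wnt antagonist, was lower, with ratios of 0.831 and 0.836 from 64 Crect lacZ and 86 wild-type cells (thinned 0.879 and 0.847, from 17 and 26 cells). Without the ectodermal cells that had 3 or more mesenchymal UMIs the ratios were 0.775 in Crect lacZ and 0.900 in wild-type cells. The Cdkn1a gate also had a lower mean, 30.7 in Crect lacZ and 38.8 in wild-type cells. The other ectodermal cells had 38.6 and 44.1. Its ratios were 0.796 in Crect lacZ and 0.879 in wild-type cells (thinned 0.555 and 0.768, from 18 and 47 cells). They were 0.856 and 0.906 without the ectodermal cells that had 3 or more mesenchymal UMIs. At 20 or more were 46.7% of the gated Crect lacZ cells against 55.6% of the others. In wild-type cells this share went the other way, 59.2% against 56.5%, but was 53.2% against 59.9% after thinning.

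Among the gates within the territories, 1 of the mesenchyme stood farthest apart between the libraries. The gate on Sox9 and Col9a1, genes of cartilage precursors, held 699 Crect lacZ cells with a mean of 42.8 and 119 wild-type cells with a mean of 84.9, against 42.4 and 54.8 in the other mesenchymal cells. After thinning it held 221 and 9 cells, with ratios of 0.791 and 1.33, so the wild-type value rests on few cells. Of the cells in neither territory, the erythroid and macrophage gates were lower than both territories of their library. The erythroid gate had 21.7 in 119 Crect lacZ and 34.2 in 180 wild-type cells, the macrophage gate 27.7 in 24 and 32.7 in 41 cells, and the endothelial gate 32.8 in 65 and 47.6 in 184 cells. The crest glia gate had 19.7 in 11 Crect lacZ cells and 53.8 in 26 wild-type cells, the wild-type value above that of the ectodermal cells of its library.

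**Figure D5:**
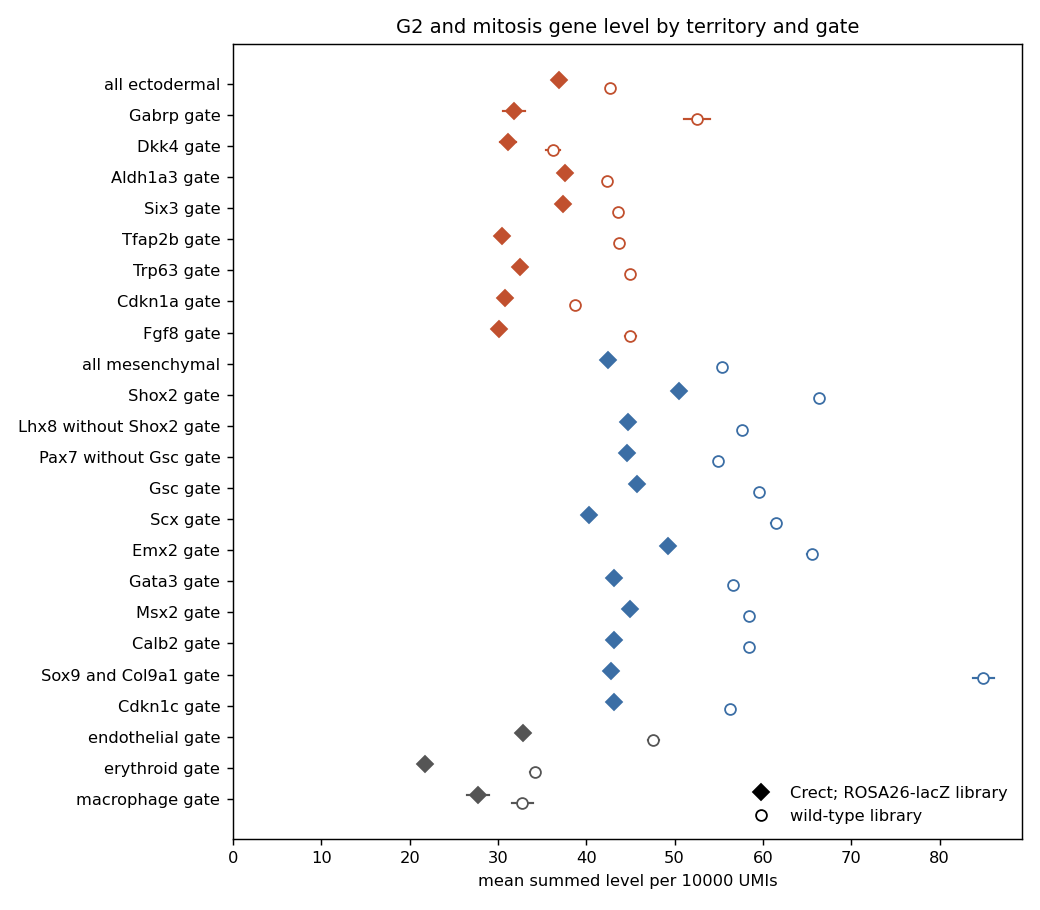
Mean summed level (x axis, UMIs per 10000) of ectodermal gates (red), mesenchymal gates (blue) and gates of cells in neither territory (grey), with filled diamonds for the Crect lacZ library, open circles for the wild-type library and lines for the 95% Poisson interval. The wild-type value is the higher one in every gate shown, and the Sox9 and Col9a1 gate of the wild-type library is the highest at 84.9.

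Between the libraries the genes were lower in Crect lacZ cells, in both territories. The mean summed level in Crect lacZ over that in wild-type cells was 0.865 in ectodermal cells (95% counting interval 0.856 to 0.873) and 0.767 in mesenchymal cells (0.764 to 0.77). The CPM ratio was below 1 for 33 of 40 genes in ectodermal and 34 in mesenchymal cells, with medians of 0.866 and 0.807, beside 1.01 and 1.05 over all genes tested. Kif20b was at the low end, with 0.512 (0.465 to 0.564) in ectodermal and 0.477 (0.459 to 0.495) in mesenchymal cells. Aspm had 0.567 and 0.557, Hmmr 0.631 and 0.522, and Prc1 0.624 and 0.559. Ube2c was at the high end, with 1.254 (1.21 to 1.297) in ectodermal and 1.21 (1.19 to 1.23) in mesenchymal cells, and Ccnb2, Cdca3 and Cks2 were also above 1 in both territories.

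The ratio between the libraries ran with the length of the transcript. Across the 40 genes, Spearman's rho between the ratio and the longest protein-coding transcript in GENCODE vM21 was -0.67 in ectodermal and -0.65 in mesenchymal cells. Across 14013 tested genes with a length it was -0.08 and -0.11. These are correlations across genes of the same 2 libraries, and genes are not independent replicates. The 20 genes with transcripts of 3334 bases or more had median ratios of 0.737 in ectodermal and 0.71 in mesenchymal cells, and the 20 of 3227 bases or fewer 0.949 and 0.882. The change between territories, ectodermal over mesenchymal, had a rho of -0.20 with length, with 15 of the longer and 12 of the shorter genes called lower. The libraries also differed in depth, with medians of 17293 UMIs per barcode in the Crect lacZ and 14056 in the wild-type library, and in erythroid markers, which summed to 5282 CPM in Crect lacZ and 17580 CPM in wild-type mesenchymal cells. The part of depth, erythroid RNA and the pool of embryos in the difference was not tested, and with 1 library each the genotype and the library cannot be told apart.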

How the data were processed

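The authors deposited raw counts of UMIs for every gene in every cell barcode, with no normalization. Cell Ranger 2.0 and build mm10 are named per the submitters' processing notes. The barcode filter and the strand setting were not given in the sources used here, and all deposited barcodes were read. The 40 genes, the lists, gates and levels were chosen with earlier results of these data known, and the gates are UMI thresholds, not clusters. Named genes were, in each role group, those with the highest mean CPM and with the largest change, then the lowest and highest change of the 40. In each other list they were up to 2 called genes per direction with the largest changes and a mean of 20 CPM or more, and for likeness the 10 genes with the highest mean r.

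Counts were summed per library and territory, giving 4 sums. They were tested with edgeR 4.0.16 in R 4.3.3 (TMM, filterByExpr, quasi-likelihood, library as a block because both territories of a library come from the same embryos) and Benjamini-Hochberg adjustment over 15423 genes. The fit had 1 residual degree of freedom, and spread was borrowed across genes (prior degrees of freedom 7.51, common biological coefficient of variation 0.0771). On simulated counts with 50 genes of each size, 70% of genes raised 1.5-fold, 92% raised 2-fold and 54% lowered 1.5-fold were recovered. Of those at the smallest change 8% were recovered, with a median fitted log2 change of 0.29, near the usual size of the changes reported here. Only these genes were changed and all genes had a common spread, while 21.1% of the real genes were called lower and 21.8% higher. The adjusted p was therefore harder to reach in the simulation, and its shares do not carry over to the real fit. P-values rest on how far the change between territories differs between these 2 libraries, with most of the spread borrowed from other genes. The difference in level between the libraries is taken out by the block. Intervals are exact Poisson or Clopper-Pearson at 95% (scipy 1.17.1). Doublets were kept, and cells with the highest Scrublet scores (scanpy 1.11.5, 6% of cells) were removed as an alternative. DESeq2 1.42.0, no TMM, no filter, no block, other gates, limits and thinning were others. GENCODE vM21 (build GRCm38), matched by 27645 gene IDs, gave the gene positions, and RefSeq the promoters.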

Additional observations from a re-analysis of the deposited data

Results flagged for a closer look

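Some values pointed in opposite directions in the 2 libraries, with the difference between libraries not tested. Among gates, given as the ratio of the mean summed level to the other cells of the territory, Gabrp cells were at 0.858 in the Crect lacZ and 1.24 in the wild-type library, Tfap2b cells at 0.766 and 1.05, Trp63 cells at 0.81 and 1.13, and Fgf8 cells at 0.792 and 1.06. Aldh1a3 cells were at 1.03 in the Crect lacZ and 0.983 in the wild-type library, Pax7 cells without Gsc at 1.06 and 0.992, and Scx cells at 0.943 and 1.12. Without the ectodermal cells that had 3 or more mesenchymal UMIs, chosen after seeing the data, Aldh1a3 cells were at 1.21 in the Crect lacZ and 1.04 in the wild-type library, on the same side. Among the 40 genes, the log2 ratio of ectodermal over mesenchymal CPM of Cenpf was 0.031 in the Crect lacZ and -0.078 in the wild-type library, that of Ndc80 0.031 and -0.24, that of Prc1 0.037 and -0.12, and that of Ect2 0.22 and -0.044.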

How the results depend on the processing

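The count of 27 genes called lower was 15 in cells thinned to 5000 UMIs and gated again (called thinned below, with fewer cells in each territory as well as less depth), 17 with DESeq2 and 0 with no replicate block (4 at an unadjusted p under 0.05), where the difference between the libraries enters the spread; it was 18 with Epcam of 4 or more UMIs. Called higher was 1 gene with Epcam of 4 or more and 1 in thinned cells, Nusap1 in both. A fold of 1.5 or more was reached by 4 called genes in ectodermal cells with 2 or fewer mesenchymal UMIs, 4 when the highest Scrublet scores were also removed (a setting chosen after seeing the data), 2 in thinned cells, 0 at a mitochondrial limit of 5% and 0 without the block. For these settings the median log2 change was -0.20 (Epcam), -0.37 (2 or fewer mesenchymal UMIs), -0.38 (with Scrublet) and -0.21 (thinned), and it ran from -0.30 to -0.25 when 1 library was left out. With 1 library left out no test could be made, since no residual degrees of freedom remain. The log2 ratio of the mean summed level was -0.29 over both libraries and -0.37 to -0.20 without 1 library. It was -0.42 with 2 or fewer mesenchymal UMIs and Scrublet, and -0.42 at matched depth. The distance was smaller in thinned cells and with Epcam of 4 or more UMIs. With that Epcam gate the means were 38.2 in ectodermal against 42.5 in mesenchymal Crect lacZ cells, and 47.6 against 55.4 in wild-type cells. The share at 20 or more, ectodermal minus mesenchymal, was -12.4 points, and -9.45 (Epcam), -17.7 (2 or fewer), -17.6 (with Scrublet), -17.1 (matched depth) and -14.4 to -10.4 (without 1 library). At 40 or more it was -9.13 points, and -5.995, -12.8, -12.8 and -14.4 for the first 4 of these, -6.59 without Top2a, Mki67 and Cenpf, -10.6 to -7.7 without 1 library and -4.95 at a level of 80. The ratio of Crect lacZ to wild-type cells was 0.801 (Epcam), 0.805 (2 or fewer), 0.81 (with Scrublet), 0.888 (mitochondrial limit), 0.887 (Scrublet) and 0.902 (without the 3 genes) in ectodermal cells. In mesenchymal cells it was 0.744 (6 or more mesenchymal UMIs, no Epcam), 0.774 (mitochondrial limit), 0.763 (thinned), 0.798 (without the 3 genes) and 0.773 (summed UMIs). Directions turned for Ccnb1 (0.0089), Nek2 (0.31), Ube2c (0.014), Cdc20 (0.061), Cenpf (0.10), Prc1 (0.065) and Kif23 (0.060) in thinned cells, for Cenpf (0.11) and Prc1 (0.075) with Epcam of 4 or more, and for Ect2 with 2 or fewer mesenchymal UMIs (-0.028, with Scrublet -0.011). In thinned cells, 17 gate ratios moved by more than the spread between the libraries and 7 by less. The cause of these moves was not tested.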
